A study of Homo sapiens with 20 samples.

Results

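Amino acid transporters are described here across the 9 groups of the study, as 55 of the 19775 genes that the arrays measured. The members are genes whose symbol in the platform annotation belongs to the SLC1, SLC3, SLC6, SLC7, SLC36, SLC38 or SLC43 families. They comprise 7 SLC1, 2 SLC3, 18 SLC6, 12 SLC7, 2 SLC36, 11 SLC38 and 3 SLC43 genes, and they were chosen by name, not by their values. Every sample came from Caco-2, a line of human colon carcinoma origin that becomes enterocyte-like at confluence, used at passages 47 to 51 and differentiated on inserts for 5 days. Live bacteria of 1 strain, namely L. acidophilus NCFM, B. lactis 420 (a Bifidobacterium) or L. salivarius Ls-33, were placed on the apical side for 8 h, with 20 to 100 of them for each cell of the monolayer (2 arrays per strain). Cell-free supernatant of each of these strains, at 10% of the medium volume, was given for 24 h (2 arrays per strain). Both treatments were set against medium alone for 8 h (2 arrays), so for the supernatants time and treatment cannot be told apart. The supernatant of the enterohaemorrhagic strain E. coli O157:H7, freed of bacteria and given at 5% for 24 h (3 arrays), was set against medium alone for 24 h (3 arrays) in a separate array set. The probiotic strains came from MRS broth and the E. coli strain from LB broth, both supplemented with 1% glucose, and no group with uninoculated broth was analysed here, so what the broth itself did to the cells was not measured. The series describes the probiotic samples as analysed in duplicate, and nothing states that arrays came from separate cultures, so p-values measure only the spread between arrays.

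Enterocytes take up amino acids in 2 steps. Carriers of the brush border use sodium, proton or exchange gradients to bring amino acids in from the lumen, and exchangers and uniporters of the basolateral membrane pass them on to the blood. Several carriers are pairs of a heavy subunit of the SLC3 family, which brings the complex to the membrane, and a light subunit of the SLC7 family, which moves the amino acid. When amino acids run short, the transcription factor ATF4 and its relatives raise many transporter and synthesis genes, and amino acids inside the cell and its lysosomes are sensed by the mTORC1 kinase complex.

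The measurements are log2 signals of Affymetrix probe sets, and the brightest probe set on average stands for its gene. Median signal was 2.66 to 2.72 in the 20 arrays, and the 13 pairs of arrays within a group had r = 0.994 to 0.997 (probe sets are not independent replicates). The floor used here is the 40th percentile of gene means, 2.74 in the probiotic set and 2.78 in the E. coli set, not a limit of detection. Of 12 epithelial markers, 11 were above it in all 9 groups, and FABP2, the intestinal fatty acid binding protein, was not. Among 10 leukocyte, fibroblast and endothelial markers, PTPRC, DCN and VWF were under the floor in all 9 groups. Above it in all were 5, namely CD3D, CD14, LYZ, COL1A1 and PECAM1 (8.29, 4.32, 7.34, 11.07 and 9.26 in 8 h medium). The summed log2 level of the 10 was 48.9 to 51.2 with the live strains, 52.4 to 52.7 with their supernatants and 52.5 in 8 h medium. It was 52.9 with E. coli supernatant and 56.7 in 24 h medium. The sum can move with single genes, since CD3D averaged 6.27, 6.45 and 6.55 with live NCFM, B. lactis 420 and Ls-33. The 3′ minus 5′ signal of the beta-actin controls, which tracks RNA integrity, also moved with treatment. It was 1.08 to 1.54 in co-culture arrays, 1.02 to 1.11 in probiotic supernatant arrays and 0.802 to 0.878 in 8 h medium arrays, and 2.12 to 2.22 with E. coli supernatant, against 1.90 to 2.17 in 24 h medium. The part of either measure in the transporter results was not tested.

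More transporters were lower than higher in every treatment. A member was tested where its mean reached the floor, which left 35 of the 55 in the probiotic set and 34 in the E. coli set, and called where the limma p adjusted over all 11865 genes tested was under 0.05. With live NCFM 5 members were higher and 14 lower than in 8 h medium, 54.3% of those tested, where 35.3% of all genes tested were called. With live B. lactis 420 the counts were 7 higher and 16 lower, 65.7% against 35.3% of all genes. With live Ls-33 they were 5 and 20, 71.4% against 38.7% of all genes. The lower calls made up 40%, 45.7% and 57.1% of tested members, where 18.4%, 16.9% and 19.3% of all genes were lower, and the higher calls 14.3%, 20% and 14.3%, where 16.8%, 18.3% and 19.4% of all genes were higher. Without 8 h medium replicate 1 the B. lactis 420 count was 15 in all, and without Ls-33 replicate 1 the Ls-33 count was 16. The lower counts of all 3 live strains include SLC1A7, whose means there were under the floor. Those of B. lactis 420 and Ls-33 also include SLC38A3, likewise under it. SLC38A9 with B. lactis 420 and SLC38A10 with Ls-33 are counted too, although their probe sets disagreed in sign. In this bulk measurement less RNA per cell and fewer cells that carry a transcript cannot be told apart.

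Probiotic supernatants moved fewer of the transporters. With NCFM supernatant 1 member was higher and 9 lower, where 11.3% of all genes were called (5.28% higher and 5.98% lower), and 6 members were called in all without 8 h medium replicate 2 or NCFM supernatant replicate 1. The counts were 1 and 7 with B. lactis 420 supernatant (15.2% of all genes, 5.98% higher and 9.2% lower) and 1 and 8 with Ls-33 supernatant (16.6% of all genes, 8.48% higher and 8.14% lower). E. coli supernatant gave 10 higher and 18 lower members of 34 tested, or 82.4%. There 64.1% of all genes were called (36.3% higher and 27.8% lower), so most of what was measured in that comparison had moved. The member counts include SLC6A20 and SLC1A6, which reached the floor through the group where each is high, so neither call is support for a change. The median log2 change of the tested members was -0.20, -0.23 and -0.40 with the 3 live strains, where that of all genes was -0.01, 0.01 and -0.01. It was -0.12, -0.13 and -0.10 with their supernatants in the same order, where that of all genes was -0.02, -0.04 and -0.01, and -0.39 with E. coli supernatant, where that of all genes was 0.05. These medians cover members that passed the floor, not all 55.

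Across the 7 comparisons with medium, 33 of the 36 members tested in any of them were called at least once. The 3 never called were SLC6A19, the main sodium-coupled carrier of neutral amino acids in the brush border, SLC6A2, the noradrenaline transporter, and SLC38A1, a sodium-coupled glutamine carrier. Lower with every live strain were 14 members, where 11.4% of all genes tested were lower with all 3. Higher with every live strain were 3 members, SLC1A4, SLC36A4 and SLC38A7, where 9.68% of all genes were. Lower with every probiotic supernatant were 7 members (3.89% of all genes), and SLC38A6 was the 1 member higher with all 3 (3.46% of all genes). The comparisons within each format share their 8 h medium arrays. Calls in both directions, depending on the treatment, were made for 7 members, namely SLC1A3, SLC3A2, SLC6A12, SLC7A2, SLC7A6, SLC38A2 and SLC38A6.

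**Figure D1:**
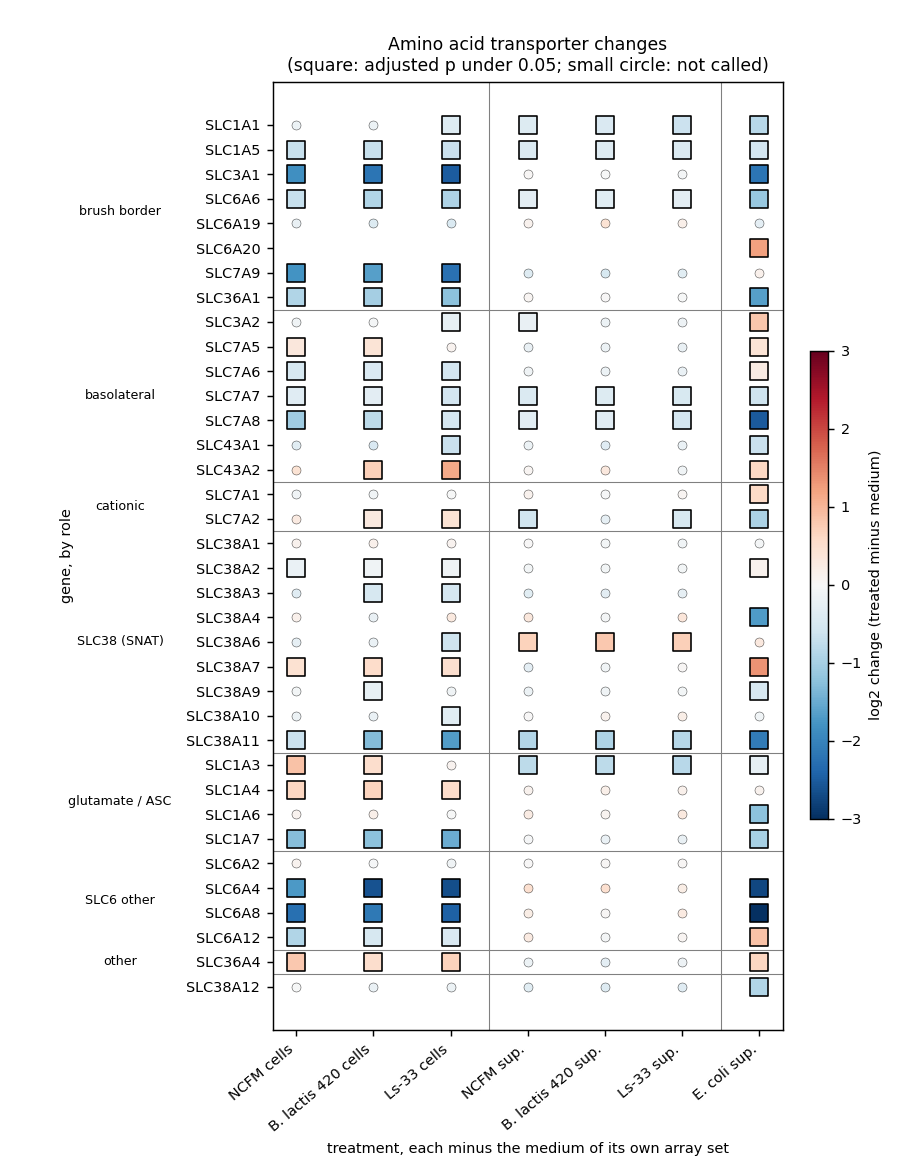
Log2 change of each tested transporter (rows, grouped by role) in each treatment minus the medium of its own array set (columns). Colour gives the log2 change, squares are calls at an adjusted p under 0.05 and small circles were not called, and an empty place means that the gene was under the floor in that array set. Blue squares prevail in the brush border rows and with the live strains, and SLC38A6 has the only red squares under the 3 probiotic supernatants.

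Promoter sequences are shown for 4 members because the best known route from amino acid shortage to transporter genes is a short element, the C/EBP-ATF response element, that ATF4 binds. RefSeq promoter windows (assembly GRCh38.p14, 300 bases on the gene strand, mostly upstream of the start site) were matched for 42 of the 55 members. The letters TGATGNAA, searched on both strands, occurred in 1270 of 35116 human promoter windows (3.62%). At least 1 window of 6 members held them, namely SLC1A3, SLC1A4, SLC1A5, SLC3A2, SLC7A1 and SLC38A1. Several members have more than 1 window, so this count of genes cannot be set against the share of windows. Each sequence below runs 5′ to 3′ with the matched letters in capitals. The match lies at bases 288 to 295 on the opposite strand in SLC3A2 (chr11:62881449-62881748, plus strand), 258 to 265 in SLC7A1 (chr13:29595639-29595938, minus strand), 244 to 251 on the opposite strand in SLC1A4 (chr2:64989149-64989448, plus strand) and 154 to 161 in SLC1A5 (chr19:46784765-46785064, minus strand). For SLC3A2, SLC1A4 and SLC1A5 the window shown is the furthest downstream of several for that gene, and another SLC1A5 window lies at chr19:46788545-46788844. A match is a description of these letters, not evidence of binding.
SLC3A2: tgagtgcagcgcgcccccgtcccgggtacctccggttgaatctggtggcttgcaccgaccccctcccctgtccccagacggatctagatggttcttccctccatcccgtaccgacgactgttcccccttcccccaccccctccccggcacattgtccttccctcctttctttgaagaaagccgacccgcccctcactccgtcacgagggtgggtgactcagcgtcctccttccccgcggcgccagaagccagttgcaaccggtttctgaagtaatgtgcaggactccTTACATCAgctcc
SLC7A1: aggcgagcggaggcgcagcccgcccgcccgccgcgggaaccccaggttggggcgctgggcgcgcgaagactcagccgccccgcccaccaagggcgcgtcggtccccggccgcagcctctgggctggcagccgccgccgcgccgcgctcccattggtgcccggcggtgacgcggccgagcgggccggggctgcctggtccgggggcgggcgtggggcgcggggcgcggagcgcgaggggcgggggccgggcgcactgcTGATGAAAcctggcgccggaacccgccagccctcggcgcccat
SLC1A4: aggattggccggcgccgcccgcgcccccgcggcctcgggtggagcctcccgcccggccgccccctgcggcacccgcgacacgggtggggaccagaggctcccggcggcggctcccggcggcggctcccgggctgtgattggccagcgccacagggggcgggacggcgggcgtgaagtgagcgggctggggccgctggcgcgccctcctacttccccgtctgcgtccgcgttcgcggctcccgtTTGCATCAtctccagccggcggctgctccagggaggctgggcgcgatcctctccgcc
SLC1A5: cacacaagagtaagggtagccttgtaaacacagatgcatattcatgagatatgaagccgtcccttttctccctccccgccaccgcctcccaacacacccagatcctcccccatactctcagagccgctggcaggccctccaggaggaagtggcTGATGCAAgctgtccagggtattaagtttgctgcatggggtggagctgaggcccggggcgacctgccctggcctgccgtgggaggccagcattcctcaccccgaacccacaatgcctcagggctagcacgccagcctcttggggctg
These 4 genes did not move together. With E. coli supernatant SLC3A2 and SLC7A1 were higher, SLC1A5 was lower and SLC1A4 was not called (log2 changes of 0.84, 0.60, -0.54 and 0.12). With the live strains SLC1A4 was higher and SLC1A5 lower.

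Among the probe sets that stand for uptake carriers, those of the brush border cystine and dibasic amino acid carrier fell most with live bacteria. Its heavy subunit SLC3A1 (probe set 205799_s_at, chromosome 2), mutated in cystinuria, read 8.50 and 8.55 with live NCFM, 8.27 and 8.06 with B. lactis 420, and 7.93 and 7.80 with Ls-33, against 10.35 and 10.37 in 8 h medium. All 6 co-culture arrays were under the medium arrays, and the strains did not overlap one another. These were falls of 3.57-fold, 4.58-fold and 5.65-fold (log2 changes of -1.84, -2.20 and -2.50, SE 0.076, adjusted p 6.6e-13, 3.4e-14 and 3.6e-15). With the probiotic supernatants SLC3A1 stayed at 10.30 to 10.42, and the log2 changes of 0.03, -0.00 and -0.05 were not called. E. coli supernatant arrays read 8.11, 7.48 and 7.82, against 9.88, 10.03 and 10.10 in 24 h medium, with no overlap and a 4.60-fold fall (SE 0.13 on the log2 scale, adjusted p 5.0e-08). The light subunit SLC7A9 (220135_s_at, chromosome 19) read 3.55 and 3.31 with NCFM, 3.36 and 3.77 with B. lactis 420, and 2.72 and 3.25 with Ls-33, against 5.11 and 5.34 in 8 h medium. It was lower by 3.47-fold, 3.17-fold and 4.73-fold (SE 0.21 on the log2 scale, adjusted p 1.4e-06, 3.5e-06 and 5.0e-08), and the co-culture arrays were near the floor. Unlike its partner, SLC7A9 was not called with E. coli supernatant, where it read 5.72, 5.89 and 6.16, against 6.10, 5.36 and 5.89 in 24 h medium, and the groups overlapped.

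Of 9 members with a role in brush border uptake, 7 were tested in the probiotic set and 8 in the E. coli set. None was higher with live bacteria or their supernatants. The lower counts were 5, 5 and 6 with live NCFM, B. lactis 420 and Ls-33, and 3 with each supernatant, and E. coli supernatant gave 1 higher and 5 lower. That 1 higher call was SLC6A20, which reached the floor through its treated arrays and is no support for a rise. The shares called were 71.4%, 71.4% and 85.7% with the live strains, where those of all genes were 35.3%, 35.3% and 38.7%, 42.9% with each supernatant, where those of all genes were 11.3%, 15.2% and 16.6%, and 75% with E. coli supernatant, where that of all genes was 64.1%. Their median log2 change was -0.70, -0.90 and -0.92 with the live strains, -0.31, -0.33 and -0.32 with the supernatants and -0.69 with E. coli supernatant. SLC36A1 (213119_at), the proton-coupled carrier of small neutral amino acids such as glycine and proline, read 9.40 and 9.31, 9.25 and 9.21, and 8.98 and 9.07 with the live strains in that order, against 10.15 and 10.34 in 8 h medium. Its falls were 1.86-fold, 2.03-fold and 2.33-fold (SE 0.096, adjusted p 5.8e-07, 9.4e-08 and 5.4e-09), and with the supernatants its log2 changes were 0.06, 0.01 and -0.02. With E. coli supernatant it read 8.37, 8.39 and 8.40, against 10.20, 9.97 and 9.97 in 24 h medium, a 3.16-fold fall (SE 0.082, adjusted p 1.0e-08). SLC36A1 and SLC3A1 thus share a pattern of low arrays with live bacteria and with E. coli supernatant, and arrays close to medium with the probiotic supernatants. Some epithelial markers moved with the brush border carriers, and their part in these results was not tested. With the live strains 7, 8 and 9 of 12 epithelial markers were called, 4 of them lower each time, namely ANPEP, DPP4, ALPI and VIL1. The other 3, 4 and 5 called were higher. The epithelial marker SI averaged 7.94, 7.74 and 7.85 with live NCFM, B. lactis 420 and Ls-33, against 6.76 in 8 h medium. Averages of KRT8 and KRT18 were above 8 h medium too. ANPEP, an aminopeptidase of the brush border, averaged 5.07, 5.21 and 5.42 with live NCFM, B. lactis 420 and Ls-33, against 6.83 in 8 h medium, and 5.81 with E. coli supernatant, against 7.82 in 24 h medium. The peptidase DPP4 averaged 11.66, 11.67 and 11.87 with the live strains, against 12.55 in 8 h medium, and none of the 4 was called with a probiotic supernatant.

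The taurine transporter SLC6A6 (228754_at), the glutamine and neutral amino acid exchanger SLC1A5 (208916_at) and the glutamate and aspartate carrier SLC1A1 (213664_at) were lower in both formats. SLC6A6 read 9.87 to 10.28 over the 6 co-culture arrays and 10.51 to 10.57 over the 6 supernatant arrays, against 10.77 and 10.97 in 8 h medium, so the 3 conditions formed separate bands. Its log2 changes were -0.70, -0.90 and -0.92 with the live strains (adjusted p 6.6e-07, 1.9e-08 and 1.1e-08) and -0.31, -0.33 and -0.32 with the supernatants (adjusted p 0.013, 0.0059 and 0.0071). Every SLC6A6 supernatant call was lost when 8 h medium replicate 2 was left out, with adjusted p up to 0.181, and the NCFM and Ls-33 calls also without a supernatant array of their own. The other SLC6A6 probe set above the floor, 205920_at, was lower with the live strains too, by log2 changes of -2.47, -1.89 and -1.87. Its fall with live NCFM was larger than those given for SLC3A1 and SLC7A9. With E. coli supernatant 205920_at was not called (-0.28). SLC1A5 read 8.79 to 9.0 with live bacteria and 9.12 to 9.29 with supernatants, against 9.66 and 9.54 in 8 h medium, again without overlap. Its log2 changes were -0.70, -0.70 and -0.67 with the live strains and -0.44, -0.38 and -0.45 with the supernatants (SE 0.082). The B. lactis 420 supernatant call of SLC1A5 was lost without 8 h medium replicate 1 or without that supernatant's replicate 2 (adjusted p up to 0.0686). SLC1A1 went the other way in size. It fell by 0.41, 0.45 and 0.63 on the log2 scale with the supernatants, to arrays of 8.57 to 8.87 against 9.26 and 9.25 in 8 h medium (adjusted p 0.0046, 0.0018 and 6.6e-05). With live bacteria its Ls-33 change of -0.40 was called and those of -0.18 and -0.17 with NCFM and B. lactis 420 were not. Its probe set 206396_at gave -1.18, -0.11 and -0.64 with the live strains in the same order, the first and last of them called, and -0.27 with E. coli supernatant, not called. SLC6A6, SLC1A5 and SLC1A1 were lower with E. coli supernatant by 2.19-fold, 1.45-fold and 1.78-fold, with 3 of 3 treated arrays below all medium arrays in each.

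SLC6A19 (231021_at) read 3.88 and 4.68 with live NCFM, 4.04 and 4.18 with B. lactis 420, and 4.01 and 4.14 with Ls-33, against 4.25 and 4.77 in 8 h medium, and it was not called in any of the 7 comparisons. SLC6A20 (219614_s_at), which carries proline and other imino acids, was under the floor in all 7 groups of the probiotic set. It read 3.91, 4.02 and 3.88 with E. coli supernatant, against 2.72, 2.58 and 2.80 in 24 h medium, whose mean of 2.70 was under the floor. SLC6A20 entered the test through its treated arrays and so had to differ, and it is the 1 higher call of the brush border group with E. coli supernatant. SLC6A14, a carrier of both neutral and cationic amino acids, averaged 1.31 to 1.59 in the 9 groups and was not tested.

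**Figure D2:**
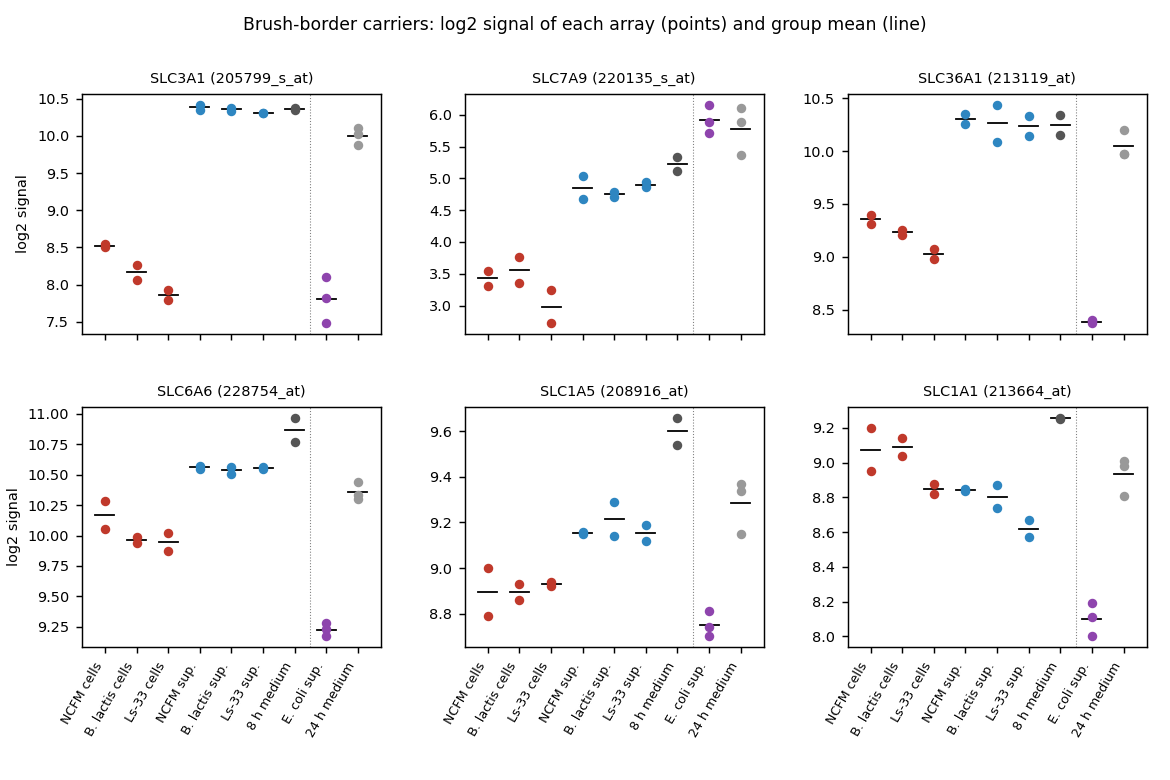
Log2 signal of 6 brush border carriers in each array (points) with the group mean (line), in the 9 groups from the live strains to 24 h medium, with the E. coli set right of the dotted line. SLC3A1 and SLC36A1 are low with live bacteria and near 8 h medium with the probiotic supernatants. The probiotic supernatant arrays of SLC7A9, SLC6A6 and SLC1A5 lie between live bacteria and 8 h medium. SLC1A1 is lower with E. coli supernatant than in 24 h medium.

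Basolateral carriers moved in both directions. Of 8 members with this role 7 were tested. Live NCFM gave 1 higher and 3 lower, B. lactis 420 gave 2 and 3, and Ls-33 gave 1 and 5, and 0 were higher and 3, 2 and 2 lower with the supernatants of these strains. E. coli supernatant gave 4 higher and 3 lower, in a comparison where 64.1% of all genes were called. With the live strains 57.1%, 71.4% and 85.7% of these 7 were called, where 35.3%, 35.3% and 38.7% of all genes were. The shares were 42.9%, 28.6% and 28.6% with the probiotic supernatants, where 11.3%, 15.2% and 16.6% of all genes were called, and 100% with E. coli supernatant. The median log2 change of this group was -0.34, -0.31 and -0.52 with the live strains and 0.24 with E. coli supernatant. SLC7A8 (216604_s_at, chromosome 14), an exchanger of neutral amino acids that pairs with SLC3A2, read 10.64 and 10.69 with NCFM, 11.07 and 10.82 with B. lactis 420, and 10.99 and 11.43 with Ls-33, against 11.62 and 11.84 in 8 h medium. NCFM arrays were the lowest, and Ls-33 and B. lactis 420 arrays overlapped. The log2 changes were -1.07, -0.78 and -0.52 (SE 0.11, adjusted p 3.2e-07, 1.5e-05 and 0.0009), and that with Ls-33 was -0.30 without Ls-33 replicate 1 and -0.74 without Ls-33 replicate 2, still called. Probe sets of SLC7A8 disagreed on the order of the strains, since 216603_at gave -1.18, -0.94 and -0.46 for the same strains and 216092_s_at gave -0.27, -0.48 and -0.65. E. coli supernatant lowered SLC7A8 by 5.74-fold, to 6.22, 6.34 and 6.28, against 8.75, 8.70 and 8.95 in 24 h medium (SE 0.11, adjusted p 3.3e-09). In the supernatants of the probiotic strains its log2 changes of -0.35, -0.35 and -0.53 were called at adjusted p 0.046, 0.035 and 0.0024, and all 3 calls were lost without 8 h medium replicate 2 (adjusted p up to 0.352). SLC7A8 averaged 8.80 in 24 h medium and 11.73 in 8 h medium, a gap for which time, array set and RNA input (1 µg and 5 µg) cannot be told apart.

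SLC7A7 (204588_s_at, chromosome 14), the light subunit that exports dibasic amino acids in exchange for neutral ones and is mutated in lysinuric protein intolerance, was lower in all 7 comparisons. It read 12.17 and 12.06 with NCFM, 12.12 and 12.18 with B. lactis 420, and 11.88 and 11.94 with Ls-33, and 11.98 to 12.06 in the 6 supernatant arrays, against 12.42 and 12.51 in 8 h medium. Every treated array lay below both medium arrays. The log2 changes were small, -0.35, -0.31 and -0.56 with the live strains and -0.44, -0.42 and -0.47 with the supernatants, but the SE was 0.047 and the adjusted p was 3.6e-05 or less in each. With E. coli supernatant it read 11.33, 11.51 and 11.38, against a range from 11.95 to 12.16 in 24 h medium, a 1.55-fold fall (adjusted p 4.4e-06). Its relative SLC7A6 (203580_s_at), with the same exchange activity, was lower with the live strains by -0.51, -0.46 and -0.56 on the log2 scale (adjusted p 5.5e-05, 0.00014 and 1.3e-05). The E. coli supernatant arrays of SLC7A6 read 9.15, 9.22 and 9.17, against 8.96, 8.88 and 8.96 in 24 h medium, a log2 change of 0.24 that was lost without E. coli supernatant replicate 2 (adjusted p 0.0522). Other SLC7A6 probe sets gave larger rises there, 2.83 for 203578_s_at and 1.85 for 203579_s_at on the log2 scale.

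SLC3A2 (200924_s_at, chromosome 11) is the heavy subunit shared by the basolateral exchangers, and SLC7A5 (201195_s_at, chromosome 16) its light subunit for large neutral amino acids. Both were higher with E. coli supernatant than in 24 h medium. SLC3A2 read 11.06, 11.09 and 11.11 there, against 10.23, 10.29 and 10.22 in 24 h medium, a 1.79-fold rise (SE 0.055, adjusted p 9.1e-08). SLC7A5 read 9.90, 9.97 and 9.79, against 9.74, 9.30 and 9.40 in 24 h medium, a 1.33-fold rise (SE 0.11, adjusted p 0.0048), so for both genes the groups did not overlap. Live NCFM and B. lactis 420 gave SLC7A5 readings of 9.39 and 9.22, and 9.43 and 9.32, against 8.95 and 8.96 in 8 h medium, with log2 changes of 0.35 and 0.42 (adjusted p 0.0026 and 0.00055). With live Ls-33 SLC7A5 read 9.0 and 9.12 and its change of 0.11 was not called. SLC3A2 was lower with live Ls-33, at 10.66 and 10.80 against a mean of 10.98 in 8 h medium (log2 change -0.25, adjusted p 0.0036), a call lost without Ls-33 replicate 1 (adjusted p 0.0789). Its change of -0.22 with NCFM supernatant was lost without any 1 of the 4 arrays compared (adjusted p up to 0.152).

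The uniporters SLC43A1 and SLC43A2, which carry branched chain and aromatic amino acids, moved apart. SLC43A2 (226629_at, chromosome 17) read 5.56 and 5.12 with NCFM, 5.64 and 5.62 with B. lactis 420, and 6.10 and 5.99 with Ls-33, against 4.82 and 5.01 in 8 h medium. Its log2 changes of 0.72 with B. lactis 420 and 1.13 with Ls-33 were called (SE 0.19, adjusted p 0.0056 and 8.6e-05), and that of 0.42 with NCFM was not (adjusted p 0.086). Without 8 h medium replicate 1 the B. lactis 420 call was lost (adjusted p 0.0538). A second SLC43A2 probe set, 228918_at, gave -0.13, 0.16 and 0.39, none of them called. E. coli supernatant raised SLC43A2 by 1.53-fold (adjusted p 0.0021), and SLC43A1 (204394_at) was lower there, at 5.69, 5.47 and 5.85 against 6.53, 6.17 and 6.29 in 24 h medium (1.58-fold, adjusted p 0.0023). SLC43A1 was also lower with live Ls-33 (log2 change -0.68, adjusted p 0.02), a call that was lost without 8 h medium replicate 1, 8 h medium replicate 2 or Ls-33 replicate 1 (adjusted p up to 0.161).

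**Figure D3:**
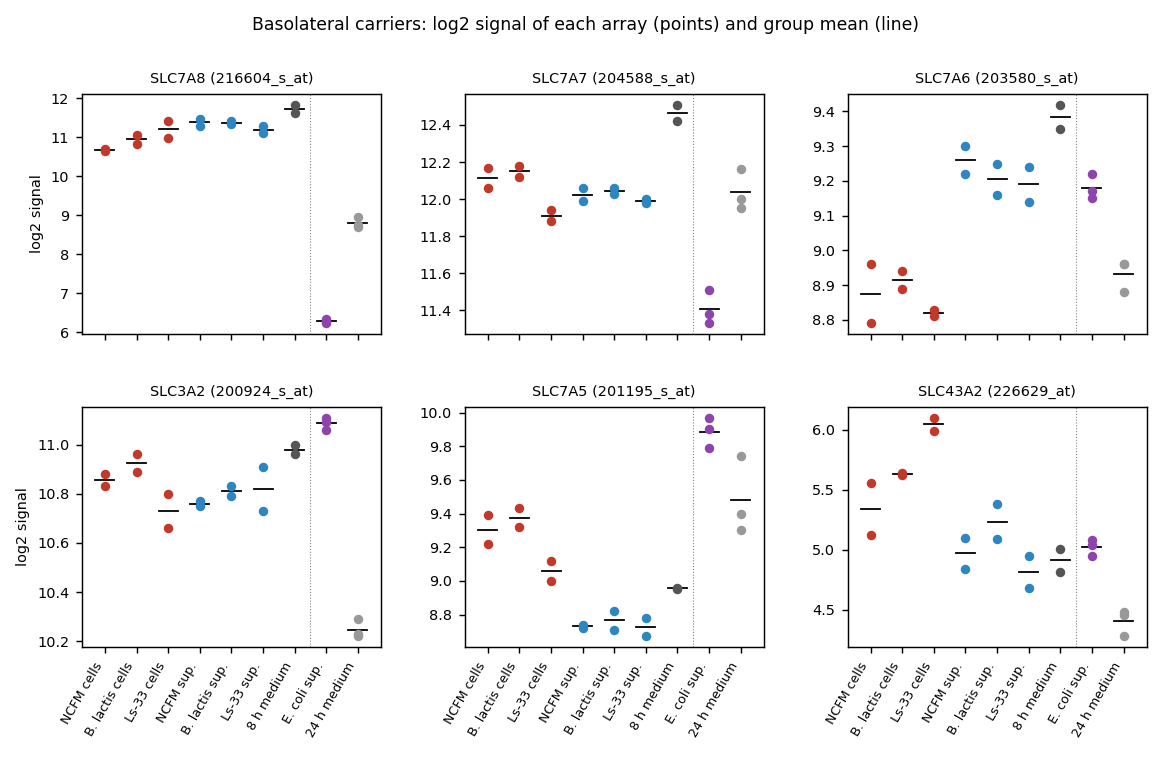
Log2 signal of 6 basolateral carriers in each array (points) with the group mean (line), in the same group order, with the E. coli set right of the dotted line. SLC7A7 is below the medium of its own array set in all treated groups. SLC3A2 and SLC7A5 are higher with E. coli supernatant than in 24 h medium. In the probiotic set SLC43A2 is highest with live Ls-33.

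The cationic amino acid carriers that were tested, SLC7A1 and SLC7A2, supply arginine, lysine and ornithine. SLC7A2 (225516_at) read 7.49 and 7.53 with live NCFM, 7.51 and 7.59 with B. lactis 420, and 7.66 and 7.73 with Ls-33, and 6.60 to 6.97 in the 6 supernatant arrays, against 7.21 and 7.29 in 8 h medium. All co-culture arrays lay above medium and all supernatant arrays below it. The rise of 0.44 on the log2 scale with Ls-33 (SE 0.11, adjusted p 0.0037) and the changes of -0.58 and -0.49 with NCFM and Ls-33 supernatant (adjusted p 0.0020 and 0.0047) were called. The B. lactis 420 co-culture change of 0.30 was called at adjusted p 0.042 and lost in 8 of 14 fits that each left out 1 array, among them those without either 8 h medium array (adjusted p up to 0.190). Each SLC7A2 call in the probiotic set was lost with the mean of all its probe sets, so the pattern by format rests on 225516_at. SLC7A2 read 7.61, 7.26 and 7.47 with E. coli supernatant, against 8.32, 8.36 and 8.50 in 24 h medium, a 1.92-fold fall (adjusted p 1.2e-05). SLC7A1 (212295_s_at, chromosome 13) was not called in the probiotic set and was higher with E. coli supernatant, at 8.54, 8.57 and 8.52 against 8.01, 7.76 and 8.04 in 24 h medium (1.52-fold, SE 0.098, adjusted p 0.00018). For SLC7A1 the probe set 212290_at gave a log2 change of 1.11 there, 212292_at one of 0.02 and 215979_s_at one of -0.06.

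Among the SLC38 carriers, which take up glutamine and other small neutral amino acids or act inside the cell, 9 with an assigned role were tested in the probiotic set (SLC38A12, with none assigned, is given apart). There 1 was higher with each live strain and 2, 4 and 5 were lower with NCFM, B. lactis 420 and Ls-33, and 1 was higher and 1 lower with each supernatant. The lower counts include SLC38A9 with B. lactis 420 and SLC38A10 with Ls-33, whose probe sets disagreed in sign. They also include SLC38A3 with both strains, where its means were under the floor. In the E. coli set 2 of 8 were higher and 3 lower. All genes tested were called at 35.3%, 35.3% and 38.7% with the live strains, 11.3% to 16.6% with their supernatants and 64.1% with E. coli supernatant, and the shares here were 33.3%, 55.6%, 66.7%, 22.2% with each supernatant and 62.5%. SLC38A11 (243231_at, chromosome 2), whose substrates are little known, read 5.62 and 5.65 with NCFM, 4.87 and 5.15 with B. lactis 420, and 4.48 and 4.77 with Ls-33, and 5.31 to 5.54 in the 6 supernatant arrays, against 6.16 and 6.46 in 8 h medium. Every treated array was below medium, and the live strains separated without overlap. The log2 changes were -0.67, -1.30 and -1.68 with the live strains and -0.89, -0.92 and -0.85 with the supernatants (SE 0.18, adjusted p 0.0055, 1.1e-05, 3.1e-07, 0.0027, 0.0018 and 0.0026). Without 8 h medium replicate 2 the SLC38A11 calls with live NCFM and with NCFM supernatant were lost (adjusted p 0.0803 and 0.0509). With E. coli supernatant it read 3.31, 3.57 and 3.16, against 5.68, 5.20 and 5.44 in 24 h medium, a 4.27-fold fall (adjusted p 5.4e-07).

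SLC38A6 (214830_at, chromosome 14), a glutamine and glutamate carrier of neurons and other cells, was the member that rose with all 3 probiotic supernatants. It read 7.40 and 7.34 with NCFM supernatant, 7.50 and 7.44 with B. lactis 420 supernatant, and 7.30 and 7.48 with Ls-33 supernatant, against 6.69 and 6.64 in 8 h medium. The rises were 1.63-fold, 1.74-fold and 1.65-fold (SE 0.15 on the log2 scale, adjusted p 0.0052, 0.0016 and 0.0028). All co-culture arrays, at 5.86 to 6.59, lay below medium, and the fall with Ls-33 was called (log2 change -0.61, adjusted p 0.0033). Leaving out NCFM supernatant replicate 1, Ls-33 supernatant replicate 2 or Ls-33 co-culture replicate 1 each ended its own SLC38A6 call (adjusted p 0.0575, 0.0547 and 0.0775).

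SLC38A7 (56821_at, chromosome 16), a glutamine carrier of the lysosome, was higher with E. coli supernatant, at 4.98, 5.38 and 5.21 against 3.86, 3.66 and 4.02 in 24 h medium, a 2.54-fold rise (SE 0.16, adjusted p 1.5e-05). Its other probe sets 218727_at and 228951_at gave log2 rises of 2.07 and 1.44. With the live strains its arrays read 4.07 to 4.24, against 3.62 and 3.67 in 8 h medium, and the changes of 0.45, 0.54 and 0.49 were called (adjusted p 0.038, 0.015 and 0.023), but each call was lost without 8 h medium replicate 1 or an array of its own strain (adjusted p up to 0.133). SLC38A4 (220786_s_at), a carrier of neutral and some cationic amino acids, fell to 3.37, 2.99 and 3.50 with E. coli supernatant, against 4.77, 5.42 and 4.74 in 24 h medium (3.23-fold, adjusted p 1.6e-05), and was not called in the probiotic set. SLC38A12 was lower by 1.87-fold with E. coli supernatant (adjusted p 0.00036). SLC38A2 (220924_s_at), an amino acid carrier that cells raise when amino acids are short, changed by -0.20, -0.13 and -0.12 with the live strains and 0.14 with E. coli supernatant on the log2 scale. These SLC38A2 calls, NCFM apart, were lost without single arrays on either side (adjusted p up to 0.260). SLC38A3, the glutamine carrier of system N, was called with live B. lactis 420 and Ls-33 (log2 changes of -0.50 and -0.54), where its means of 2.69 and 2.66 were under the floor, and both calls were lost without either 8 h medium array (adjusted p up to 0.204). SLC38A9 (235241_at), the lysosomal arginine sensor of mTORC1, was lower with E. coli supernatant, at 8.53, 8.52 and 8.56 against 8.84, 9.24 and 9.0 in 24 h medium (1.41-fold, adjusted p 0.0011), as was its other probe set 243709_at (log2 change -0.76). With the live strains the SLC38A9 probe sets went opposite ways, -0.08, -0.24 and -0.14 for 235241_at and 1.41, 0.64 and 0.87 for 243709_at, so no direction is given. SLC38A10 was called with live Ls-33 alone (log2 change -0.34, adjusted p 0.033), a call lost without 8 h medium replicate 1 or either Ls-33 array (adjusted p up to 0.365), and its probe sets disagreed in sign.

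In the glutamate and neutral exchanger group, SLC1A3 (202800_at, chromosome 5), a high-affinity glutamate carrier best known from glia, had opposite calls by format. Of the 4 tested in this group, 2, 2 and 1 were higher and 1 lower with live NCFM, B. lactis 420 and Ls-33. With each supernatant 1 was lower, and 3 were lower with E. coli supernatant. The 1 lower with each live strain was SLC1A7, whose means there were under the floor. The 3 lower with E. coli supernatant include SLC1A6, which reached the floor through its medium arrays, so that call is no support for a fall. The shares called were 75%, 75% and 50% with the live strains, where 35.3%, 35.3% and 38.7% of all genes were. They were 25% with each supernatant (all genes 11.3%, 15.2% and 16.6%) and 75% with E. coli supernatant (all genes 64.1%). SLC1A3 read 10.43 and 10.43 with live NCFM, 10.04 and 10.11 with B. lactis 420, and 9.68 and 9.63 with Ls-33, against 9.54 and 9.57 in 8 h medium. In the supernatants of the same strains it read 8.68 and 8.84, 8.72 and 8.82, and 8.66 and 8.77. Live NCFM arrays were the highest and all supernatant arrays lay below medium. The log2 changes were 0.87, 0.52 and 0.10 with the live strains (SE 0.074, adjusted p 2.5e-08, 1.9e-05 and 0.32) and -0.80, -0.79 and -0.84 with the supernatants (adjusted p 1.3e-06, 1.4e-06 and 3.6e-07). The falls with supernatants were of the same sign in its other probe set, 1569054_at (-0.83, -0.39 and -0.76), but the rises with live bacteria were not, at -0.17, -0.35 and -1.30 for NCFM, B. lactis 420 and Ls-33, so the direction with live bacteria holds for 202800_at only. E. coli supernatant lowered SLC1A3 by 1.20-fold (adjusted p 0.0095) by 202800_at and gave a log2 change of 0.08 by 1569054_at.

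SLC1A4 (209610_s_at, chromosome 2), an alanine, serine and cysteine exchanger, read 3.98 and 3.58 with NCFM, 3.93 and 3.68 with B. lactis 420, and 3.46 and 3.89 with Ls-33, against 3.41 and 2.86 in 8 h medium. The log2 changes were 0.65, 0.67 and 0.54 (SE 0.20, adjusted p 0.018, 0.014 and 0.040), and all 3 calls were lost without 8 h medium replicate 2 (adjusted p up to 0.420). Its probe set 212810_s_at gave 0.57, 0.54 and 0.54. SLC1A7 (243623_at), a glutamate carrier of the retina, averaged 2.69, 2.74 and 2.46 with the live strains, at or under the floor, against 3.96 in 8 h medium. Its changes of -1.27, -1.22 and -1.50 are therefore uncertain in size. SLC1A7 was lower with E. coli supernatant by 1.99-fold (adjusted p 5.4e-05). SLC1A6, another glutamate carrier, averaged 2.68 there, under the floor, against 3.90 in 24 h medium, and entered the test through the medium arrays, so its call is no support for a fall.

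In the probe set standing for each gene, the creatine transporter SLC6A8 fell most of all tested members with live NCFM and with E. coli supernatant. The serotonin transporter SLC6A4 fell most with live B. lactis 420 and Ls-33. SLC6A8 (202219_at, chromosome X) read 6.67 and 6.99 with NCFM, 7.04 and 6.84 with B. lactis 420, and 6.75 and 6.53 with Ls-33, against 9.14 and 9.06 in 8 h medium. The falls were 4.82-fold, 4.46-fold and 5.48-fold (SE 0.11 on the log2 scale, adjusted p 1.2e-11, 2.2e-11 and 2.0e-12), with a gap of over 2 log2 units between the arrays. In the supernatant arrays SLC6A8 read 9.13 to 9.40 and was not called. With E. coli supernatant it read 6.54, 6.31 and 6.34, against 9.66, 9.32 and 9.53 in 24 h medium, an 8.60-fold fall (SE 0.11, adjusted p 1.0e-09). Its other probe sets 210854_x_at and 213843_x_at fell too, but near-identical copies of SLC6A8 exist in the genome, so its signal may include theirs.

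SLC6A4 (242009_at, chromosome 17), which clears serotonin from the gut wall, read 5.31 and 5.23 with NCFM, 4.45 and 4.33 with B. lactis 420, and 4.47 and 4.20 with Ls-33, against 7.04 and 6.95 in 8 h medium. These were falls of 3.31-fold, 6.09-fold and 6.34-fold (SE 0.17 on the log2 scale, adjusted p 2.1e-07, 5.5e-10 and 3.0e-10). All 6 supernatant arrays, at 7.10 to 7.75, lay above both medium arrays, but the log2 changes of 0.47, 0.49 and 0.22 were not called (adjusted p 0.083, 0.059 and 0.44). SLC6A4 read 4.24, 4.06 and 3.91 with E. coli supernatant, against 6.60, 6.80 and 7.01 in 24 h medium, a 6.64-fold fall (adjusted p 3.4e-08). Its probe set 207519_at was lower in the same 4 comparisons, with log2 changes of -1.43, -2.03, -1.75 and -1.25. SLC6A12 (206058_at, chromosome 12), the carrier of betaine and GABA that cells use against osmotic stress, had opposite calls. It was lower with live NCFM, at 3.82 and 3.61 against 4.61 and 4.62 in 8 h medium (log2 change -0.90, SE 0.17, adjusted p 0.00032), and higher with E. coli supernatant, at 5.03, 5.04 and 4.81 against 4.27, 4.05 and 3.90 in 24 h medium (1.85-fold, adjusted p 0.0003). Its calls with the other two live strains, both lower, ended without any 1 of the 4 arrays compared (adjusted p up to 0.104 and 0.122).

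SLC36A4 (234978_at, chromosome 11), a high-affinity carrier of proline and tryptophan, was higher where its relative SLC36A1 was lower. It read 7.38 and 7.37 with NCFM, 6.91 and 7.27 with B. lactis 420, and 7.34 and 7.15 with Ls-33, against 6.39 and 6.74 in 8 h medium, and 7.71, 7.69 and 7.64 with E. coli supernatant, against 7.13, 7.01 and 6.95 in 24 h medium. The log2 changes were 0.81, 0.53, 0.68 and 0.65 (adjusted p 0.0016, 0.029, 0.0055 and 0.00016). The B. lactis 420 and Ls-33 calls of SLC36A4 were lost without 8 h medium replicate 1 (adjusted p up to 0.259), and its probe set 230874_at was called nowhere.

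**Figure D4:**
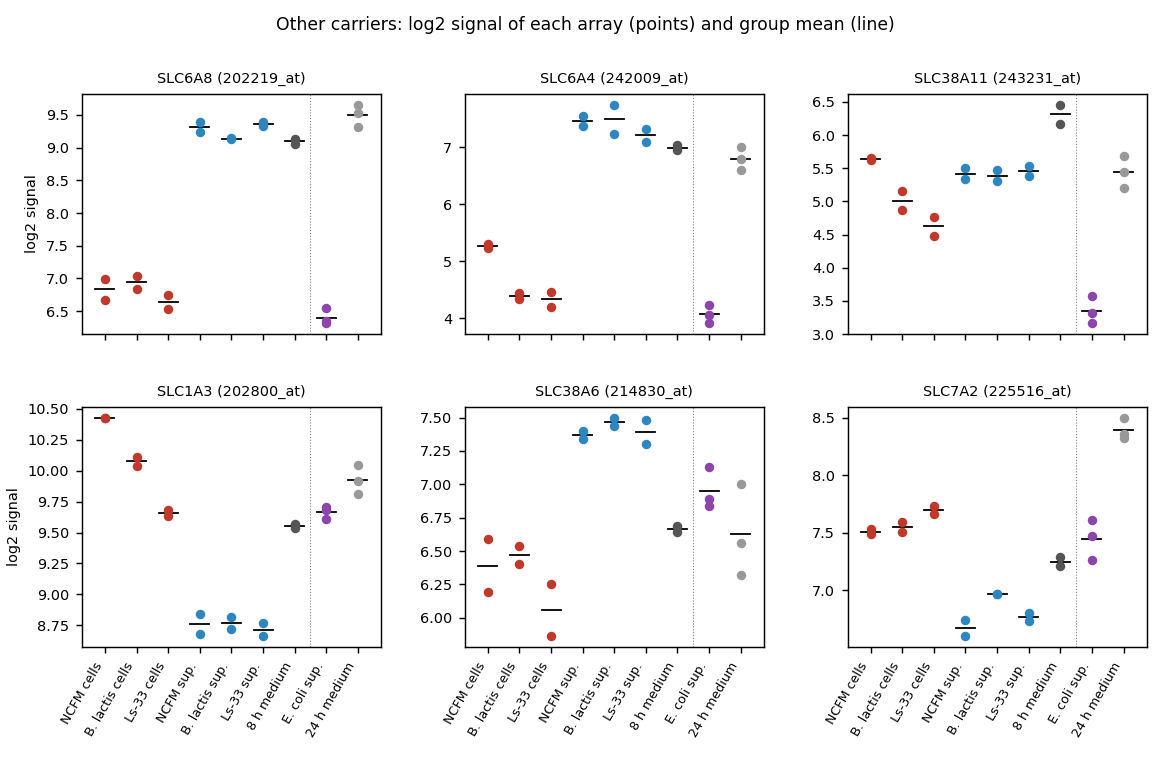
Log2 signal of 6 further members in each array (points) with the group mean (line), in the same group order, with the E. coli set right of the dotted line. SLC6A8 and SLC6A4 are low with live bacteria and E. coli supernatant. In the probe sets shown, SLC1A3 and SLC7A2 are above 8 h medium with live bacteria and below it with probiotic supernatants, and SLC38A6 is the reverse.

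How far the live strains differed among themselves was tested with a moderated F-test over the 3 co-cultures, and 8 of 35 members were called, where 13.7% of all genes were. They were SLC1A3 (adjusted p 2.0e-06), SLC3A1 (2.5e-05), SLC6A4 (0.00109), SLC38A11 (0.00185), SLC7A7 (0.00295), SLC7A8 (0.00637), SLC7A5 (0.0306) and SLC43A2 (0.0399). In the probe sets used, Ls-33 was lowest for SLC1A3, SLC3A1, SLC6A4, SLC38A11, SLC7A5 and SLC7A7, and highest for SLC43A2 and SLC7A8. For SLC7A8 the probe set 216092_s_at put Ls-33 lowest instead. The gap between the highest and the lowest strain was 1.01 for SLC38A11, 0.94 for SLC6A4, 0.77 for SLC1A3 and 0.66 for SLC3A1 on the log2 scale. In pairs, Ls-33 minus NCFM gave 2 higher and 6 lower members (14.7% of all genes called, 8.13% higher and 6.55% lower), with SLC38A11 at -1.01, SLC6A4 at -0.94, SLC1A3 at -0.77 and SLC3A1 at -0.66, and SLC43A2 at 0.70 and SLC7A8 at 0.55. Ls-33 minus B. lactis 420 gave 0 higher and 4 lower (5.58% of all genes, 2.88% higher and 2.7% lower), SLC1A3, SLC3A1, SLC7A5 and SLC7A7. B. lactis 420 minus NCFM gave 0 higher and 3 lower (3.03% of all genes, 2.28% higher and 0.759% lower), SLC6A4 at -0.88, SLC3A1 at -0.36 and SLC1A3 at -0.35. Leaving out either Ls-33 array reduced the 8 F-test calls to 5. SLC43A2 lost its F-test call without NCFM replicate 2, B. lactis 420 replicate 1 or either Ls-33 array (adjusted p up to 0.201) and SLC7A8 without Ls-33 replicate 2 (0.0594). Of 8 other processing settings, SLC43A2 lost its call in 4, SLC7A8 in 2 and SLC3A1 in 1. The mean of all probe sets was among them each time.

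Among the 3 supernatants 0 of 35 members were called by the limma F-test, where 0.0337% of all genes were, and 2 had an unadjusted p under 0.05. All 8 other processing settings and all fits that left out 1 array also gave 0. For SLC7A7 the supernatant means were 12.02, 12.04 and 11.99 for NCFM, B. lactis 420 and Ls-33, and for SLC1A3 8.76, 8.77 and 8.72.

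Whether the strain differences depended on format was tested with the interaction of strain and format, and 4 members were called, where 4.40% of all genes were. They were SLC1A3 (adjusted p 0.000891), SLC3A1 (0.0089), SLC7A8 (0.0236) and SLC38A11 (0.045). For each of them the strains lay further apart as live bacteria than as supernatants. The SLC38A11 call was lost in 11 of 14 fits without 1 array (adjusted p up to 0.155), and that of SLC7A8 without NCFM supernatant replicate 2, Ls-33 replicate 2 or Ls-33 supernatant replicate 2 (adjusted p up to 0.115). The mean of the 3 co-cultures minus the mean of the 3 supernatants was called for 26 of 35 members, 10 higher and 16 lower, where 55.8% of all genes were called (30.6% higher and 25.2% lower). The largest differences below 0 were -2.72 for SLC6A4, -2.47 for SLC6A8, -2.17 for SLC3A1 and -1.50 for SLC7A9 on the log2 scale, and the largest above 0 were 1.30 for SLC1A3 and 0.88 for SLC36A4. SLC6A19, uncalled against medium, was lower in the co-cultures by 1.51-fold in this contrast (log2 difference -0.60, adjusted p 0.00065). Format and time (8 h and 24 h) cannot be told apart in it.

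The genes around the carriers were followed with 5 lists. Of 11 tested partners and related carriers, 1, 3 and 2 were higher and 7, 8 and 4 lower with live NCFM, B. lactis 420 and Ls-33, and 6 higher and 5 lower with E. coli supernatant. That is 72.7%, 100% and 54.5% with the live strains, where 35.3%, 35.3% and 38.7% of all genes were called, and 100% with E. coli supernatant, where 64.1% were. Their median log2 change was -0.42, -0.45 and -0.09 with the live strains and 0.73 with E. coli supernatant. PDZK1, a scaffold protein that holds carriers at the brush border, had log2 changes of -2.20, -2.45 and -3.23 with the live strains and -2.56 with E. coli supernatant (adjusted p 1.5e-11, 3.0e-12, 3.7e-14 and 1.8e-09). SLC15A1, the peptide transporter of the brush border, changed by -1.31, -0.98 and -0.38 with the live strains and -1.27 with E. coli supernatant. CLTRN, collectrin, which helps SLC6A19 to the membrane in the kidney, changed by -0.76 with NCFM and -0.71 with B. lactis 420 and by 2.98 with E. coli supernatant (adjusted p 0.016, 0.023 and 9.3e-09). The kinase SGK1, which raises the activity of several carriers, changed by -0.41 with live NCFM and 0.97 with E. coli supernatant. With each probiotic supernatant 1 of the 11 partners was called (9.09%), below the 11.3%, 15.2% and 16.6% of all genes.

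The list of the amino acid response and of amino acid synthesis had 23 tested genes. Live NCFM and B. lactis 420 each gave 4 higher and 9 lower genes and Ls-33 gave 5 and 11. Their supernatants in that order gave 4 and 1, 5 and 2, and 6 and 2, and E. coli supernatant gave 13 and 6. With the probiotic supernatants 21.7%, 30.4% and 34.8% were called, where 11.3%, 15.2% and 16.6% of all genes were. The shares called were 56.5%, 56.5% and 69.6% with the live strains and 82.6% with E. coli supernatant (all genes 35.3%, 35.3%, 38.7% and 64.1%), and the higher shares with the live strains, 17.4%, 17.4% and 21.7%, were near the 16.8%, 18.3% and 19.4% of all genes. The median log2 change was -0.20, -0.17 and -0.17 with the live strains, 0.10, 0.10 and 0.12 with their supernatants and 0.31 with E. coli supernatant. ATF4 changed by -0.66, -0.47 and -0.66 on the log2 scale with the live strains (SE 0.065, adjusted p 1.9e-07, 1.3e-05 and 1.6e-07) and by 1.11 with E. coli supernatant (SE 0.048, adjusted p 3.6e-09). TRIB3, a pseudokinase and a target of ATF4, changed by -1.77, -1.38 and -1.28 with the live strains, by 0.67, 0.38 and 0.52 with their supernatants and by 1.05 with E. coli supernatant. ATF3, a stress-induced factor of the same family, changed by 5.83 with E. coli supernatant (SE 0.13, adjusted p 5.9e-11). Synthesis enzymes moved in both directions. PSAT1, of serine synthesis, rose by 1.19, 1.07 and 0.83 on the log2 scale with the live strains, and ASNS, asparagine synthetase, by 0.64, 0.51 and 0.40. PHGDH, the first enzyme of serine synthesis, changed by -0.93, -0.87 and -1.10.

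In amino acid metabolism the largest changes were those of ARG1, the arginase of the urea cycle, at -3.19, -3.16 and -3.76 with the live strains and -3.93 with E. coli supernatant (adjusted p 8.1e-11, 7.8e-11, 4.4e-12 and 5.7e-08). ODC1, the first enzyme of polyamine synthesis from ornithine, changed by 0.64, 0.80 and 0.78 with the live strains and 0.94 with E. coli supernatant. Of the list of glutamine, glutamate, arginine and proline metabolism, 13 genes were tested in the probiotic set, and 4 and 5, 3 and 5, and 3 and 3 were higher and lower with the live strains. In the E. coli set 15 were tested, with 5 higher and 7 lower. The shares called were 69.2%, 61.5% and 46.2% with the live strains and 80% with E. coli supernatant, against the same shares of all genes as in the other lists. Branched chain and other amino acid catabolism had 2 and 4, 3 and 4, and 2 and 5 higher and lower of 11 with the live strains, and 2 and 9 with E. coli supernatant, or 54.5%, 63.6%, 63.6% and 100% called, where 35.3%, 35.3%, 38.7% and 64.1% of all genes were. BCAT1, the cytosolic transaminase of branched chain amino acids, was lower in every comparison, at -0.25, -0.32 and -0.24 with the live strains, -0.39, -0.43 and -0.46 with their supernatants and -0.77 with E. coli supernatant. Of 29 tested mTORC1 sensing genes, 7, 7 and 6 were higher and 1, 3 and 2 lower with the live strains, and 10 were higher and 6 lower with E. coli supernatant. The shares called, 27.6%, 34.5%, 27.6% and 55.2%, were below the 35.3%, 35.3%, 38.7% and 64.1% of all genes. The mTORC1 activator RHEB had log2 changes of 0.30, 0.25 and 0.30 with the live strains, 0.34, 0.40 and 0.44 with their supernatants and 0.37 with E. coli supernatant, and RRAGC, a GTPase that brings mTORC1 to the lysosome, changed by 1.38 with E. coli supernatant.

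**Figure D5:**
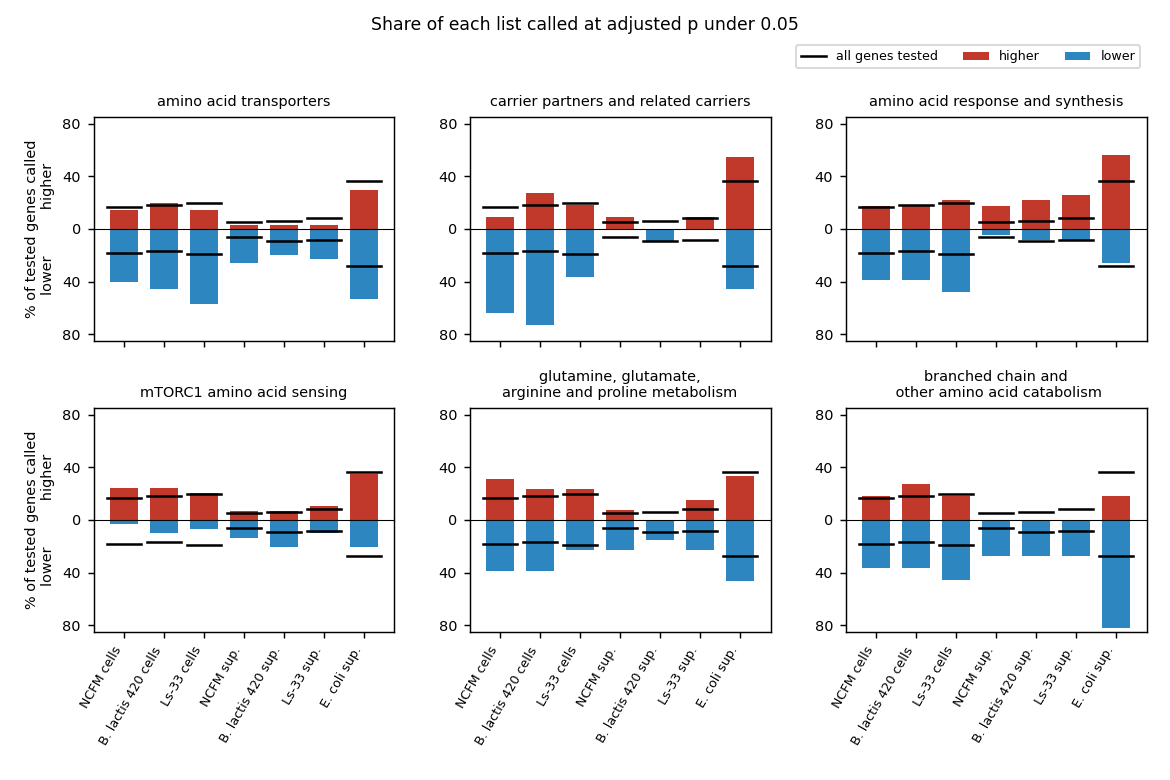
Share of tested genes called higher (up) and lower (down) in the transporters and in 5 lists of related genes, for the 7 treatments against the medium of their own array set, with black lines at the shares of all genes tested. Lower transporters exceed the line in each of the 7 comparisons, and higher ones are near or below it.

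The other 19 members had means over their array set that were under the floor in both sets and were not tested. Their group means were 1.31 to 2.90, and SLC38A5 in 8 h medium was the highest of them. They include SLC6A14, 10 of the 14 SLC6 members outside the brush border group, among them the dopamine transporter SLC6A3 and the glycine transporters SLC6A5 and SLC6A9, and the cationic carriers SLC7A3 and SLC7A4. Some group means of SLC38A5, SLC6A11 and SLC6A18 in the probiotic set were above the floor, at 2.76 to 2.90, and no change of these 19 genes was tested.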

How the data were processed

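Gene expression was measured on 20 Affymetrix HG-U133 Plus 2.0 arrays of Caco-2 cells, 14 in the probiotic set (7 groups of 2) and 6 in the E. coli set (2 groups of 3). Per the submitters' processing notes the authors used RMA, and the deposited values are its log2 signals. The sources used here do not give its version or say if the array sets were normalized jointly. The platform annotation gave 1 gene symbol for 41091 of 54675 probe sets and several for 1801, which were left out. A gene was read from its brightest probe set on average, avoiding cross-hybridizing sets where others existed. Genes with a mean at or above the 40th percentile of their set were tested (11865 in each) with limma 3.58.1 in R 4.3.3, using lmFit and eBayes with a variance trend, 1 fit per array set, and Benjamini-Hochberg adjustment over all tested genes at a threshold of 0.05. Contrasts within the probiotic set share the 8 h medium arrays and 1 estimate of the spread. The number of arrays limits the precision. The fit was tested on simulated data.

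The members and gene lists were chosen with earlier results of these data known. Any member could be named, single-array values were given for 15 chosen carriers and for the largest called changes of each comparison, and from each list up to 4 called genes with the lowest adjusted p could be named, besides genes singled out after their values were seen. Alternatives were no filter, the 60th percentile, no variance trend, fits of only the compared groups, joint quantile normalization, other probe sets or their mean, a replicate block and leaving out each array. A gene of the SLC7 family is not reported here. Affymetrix levels were not compared between probe sets.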

Additional observations from a re-analysis of the deposited data

Results flagged for a closer look

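The differences between the live strains and the differences between their supernatants were set against each other by the interaction of strain and format in limma, and 4 transporters passed at an adjusted p under 0.05. SLC1A3 had an adjusted p of 0.000891, with log2 changes against 8 h medium of 0.87, 0.52 and 0.10 as live NCFM, B. lactis 420 and Ls-33 and of -0.80, -0.79 and -0.84 as their supernatants. SLC3A1 had an adjusted p of 0.0089, with changes of -1.84, -2.20 and -2.50 as live strains and 0.03, -0.00 and -0.05 as supernatants, and kept its call in all 14 fits without 1 array (adjusted p up to 0.0498) but not without the variance trend or with the mean of all probe sets. SLC7A8 had an adjusted p of 0.0236, with changes of -1.07, -0.78 and -0.52 and of -0.35, -0.35 and -0.53, and lost its call in 3 of the 14 fits and under the same 2 settings as SLC3A1. SLC38A11 had an adjusted p of 0.045, with changes of -0.67, -1.30 and -1.68 and of -0.89, -0.92 and -0.85, and lost its call in 11 of the 14 fits, without the variance trend and with every probe set on its own. Format and time of exposure cannot be told apart in these values.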

How the results depend on the processing

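Of 122 calls of members, 87 held in all fits without 1 array, 95 in all other settings of the processing and 80 in both. Other probe sets were left out of these counts. Of 208 results from another probe set above the floor, 160 were the same, 33 lost a call, 4 gained a call and 11 turned the sign. Leaving out single arrays moved the called members to 16 to 21 with live NCFM, 15 to 23 with B. lactis 420, 16 to 25 with Ls-33, 6 to 10, 6 to 9 and 6 to 10 with their supernatants, and 26 to 29 with E. coli supernatant. It gave 5 to 10 in the F-test of co-cultures, 0 to 0 in that of supernatants, 2 to 4 in the interaction, 24 to 27 for co-cultures minus supernatants, 5 to 9 for Ls-33 minus NCFM, 2 to 4 for Ls-33 minus B. lactis 420 and 1 to 4 for B. lactis 420 minus NCFM. The other settings gave 14 to 20, 17 to 23, 18 to 25, 7 to 11, 7 to 9, 8 to 10 and 19 to 30 for the 7 treatments in that order, and the lowest counts of the live strains and of E. coli supernatant came from the 60th percentile, which tests fewer genes. Without the variance trend the counts were 5 in the F-test of co-cultures, 1 in the interaction, 1 for Ls-33 minus B. lactis 420 and 1 for B. lactis 420 minus NCFM, and a fit of only the groups compared also gave 1 for the last. The mean of all probe sets turned the sign of SLC38A9 with the live strains (0.66, 0.20 and 0.37) and of SLC1A3 with Ls-33 (-0.60). Other probe sets turned SLC1A3 (-0.17, -0.35 and -1.30 with the live strains, 0.078 with E. coli supernatant), SLC38A9 (1.41, 0.64 and 0.87), SLC38A10 with Ls-33 (0.075 and 0.28), and, with E. coli supernatant, SLC38A1 (0.53) and SLC7A1 (-0.059); the cause was not tested. Replicate numbers did not pair the samples, since deviations of same-numbered arrays correlated at -0.104 to 0.057 over 21 probiotic group pairs and at -0.138, -0.0618 and 0.0363 in the E. coli set. With the replicate block the counts were 19, 23, 25, 10, 8, 9 and 27 for the 7 treatments in the order above, and 9 for Ls-33 minus NCFM. Signals near the floor limit SLC7A9, SLC1A7, SLC38A3, SLC1A6 and SLC6A20, so the sizes of their differences are uncertain. In the E. coli set SLC1A6 and SLC6A20 also entered the test through the group where each is high.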
